A study of Mus musculus with 6 samples.

Results

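The small heat shock proteins are chaperones that need no ATP. They share an alpha-crystallin domain, assemble into oligomers and hold unfolding proteins until the ATP-driven chaperones refold them or autophagy removes them. Some, such as Hspb1 and Cryab, are found in many tissues and can be induced by heat shock factors, while Hspb2, Hspb3, Hspb6 and Hspb7 are best known from heart, skeletal and smooth muscle. In human tissues, the Hspb7 protein was first described as a stress protein of cardiovascular and insulin-sensitive tissues, adipose tissue among them. The 7 genes described here are Hspb1, Hspb2, Hspb3, Hspb6, Hspb7, Hspb8 and Cryab, out of 19937 genes measured. They were chosen by family after the KO and WT signals of Hspb7 on these arrays had been seen, since Hspb7 was higher in KO. Each gene is represented by the probe set with its symbol alone and the highest mean signal.

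The arrays compare adipose tissue of 3 cavin-3 knockout (KO) and 3 wild type (WT) mice, 10 weeks old, on standard chow and fasted for 6 hours. In KO mice a lacZ/neo cassette replaces the cavin-3 gene in every cell, and the line goes back to 1 targeted clone of C57BL/6N embryonic stem cells injected into C57BL/6 blastocysts, with knockouts bred from heterozygous parents. Whether WT and KO mice came from the same litters is not stated. The fat depot is not given in the labels. Values are log2 intensities on the Affymetrix Mouse Gene 1.0 ST array, limma was fitted to KO and WT across 34760 probe sets, and p-values are adjusted by Benjamini and Hochberg over the whole array. The number of arrays limits the precision, and levels are compared between arrays for 1 gene or 1 list mean at a time. Between genes, levels are only placed above or below the median probe set.

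Cavin-3 itself (Cavin3) had log2 signals of 6.79, 6.78 and 7.12 in KO and 10.05, 10.90 and 10.45 in WT, which fits the labels. The adipocyte list, with Adipoq among its 14 measured genes, had list means between 11.90 and 12.00 in KO and between 11.80 and 11.98 in WT. KO replicate 3 and WT replicate 2 stand apart from the other arrays. Xist, the RNA of the inactive X chromosome, had 11.34 in KO replicate 3 and 11.14 in WT replicate 2 and at most 6.30 elsewhere, although the methods state that only males were analysed. Uty, a gene of the Y chromosome, had 3.21 in KO replicate 3 and 3.36 in WT replicate 2, against 7.89 to 8.14 on the other arrays. Eif2s3y and Kdm5d, also of the Y chromosome, were lowest on these arrays too. The labels give no sex. A difference of KO replicate 3 and WT replicate 2 from the other arrays cannot be told apart from one of sex. The same arrays were high in skeletal muscle genes. The mean of the 36 listed genes was 8.03 in KO replicate 3 and 7.82 in WT replicate 2, against 5.58 to 6.17 on the other 4 arrays, and for 34 of the 36 genes these were the highest arrays. KO replicate 2 and WT replicate 1 were high in smooth muscle genes instead, with list means of 9.73 and 9.87 over 11 genes, against 7.96 to 8.73 elsewhere. Values without some of these arrays stand beside the results.

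Among the small heat shock protein genes, Hspb7 had the widest difference, 1.84-fold higher in KO, followed by Cryab at 1.3-fold and Hspb1 at 1.29-fold. Hspb6, Hspb2, Hspb3 and Hspb8 lay between 0.906-fold and 1.12-fold. Hspb7 chose the family and is not tested. Of the other 6 genes limma called 0 at an adjusted p under 0.05, where 0.00575% of all probe sets (2 of 34760) and 0.00502% of genes (1 of 19937) were. With all 6 arrays and no covariate or block, limma and the methods' t-test each called 0 of the 6 at an unadjusted p under 0.05. Over all genes limma called 167 of 19937. The median log2 difference of these 6 genes was 0.07, with 3 above 0 and 3 below, beside a median of 0.00 over all 19937 genes, of which 10036 were above 0. In whole tissue, fewer cells of a type and less RNA per cell cannot be told apart.

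Hspb7, a small heat shock protein of muscle that binds filamin C, had log2 signals of 7.20, 7.46 and 8.54 in KO replicates 1, 2 and 3, against 6.79, 6.83 and 6.94 in the WT replicates. Every KO array was above every WT array, by 0.26 at the closest. The WT arrays lay within 0.16 of each other, and most of the spread in KO came from replicate 3, which was 1.21 above the mean of the other 2 KO arrays. Hspb7 averaged 7.73 ± 0.71 in KO and 6.85 ± 0.08 in WT (SD, n = 3 each), a log2 difference of 0.88 with a 95% interval of 0.07 to 1.69. Since the family was picked for this difference, it is given as a description without a test. Over all genes, 2.08% had all KO values above all WT values (415 of 19937), and 4.61% had no overlap in either direction. Without KO replicate 3 the log2 difference was 0.48 (0.17 to 0.79), or 1.39-fold. Without each of the other arrays it was between 0.85 and 1.15. The intervals were -0.18 to 1.87 without WT replicate 1, -0.16 to 1.90 without WT replicate 2 and -0.10 to 1.95 without WT replicate 3. With the methods' t-test on all arrays the interval was -0.26 to 2.03. The difference was 0.64 (-0.03 to 1.31) with array weights and 0.88 (0.22 to 1.54) with a skeletal muscle covariate. That covariate, the mean of the skeletal muscle list, averaged 6.53 in KO and 6.52 in WT. It could therefore hardly move the difference, and the part of muscle was not tested by it.

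**Figure D1:**
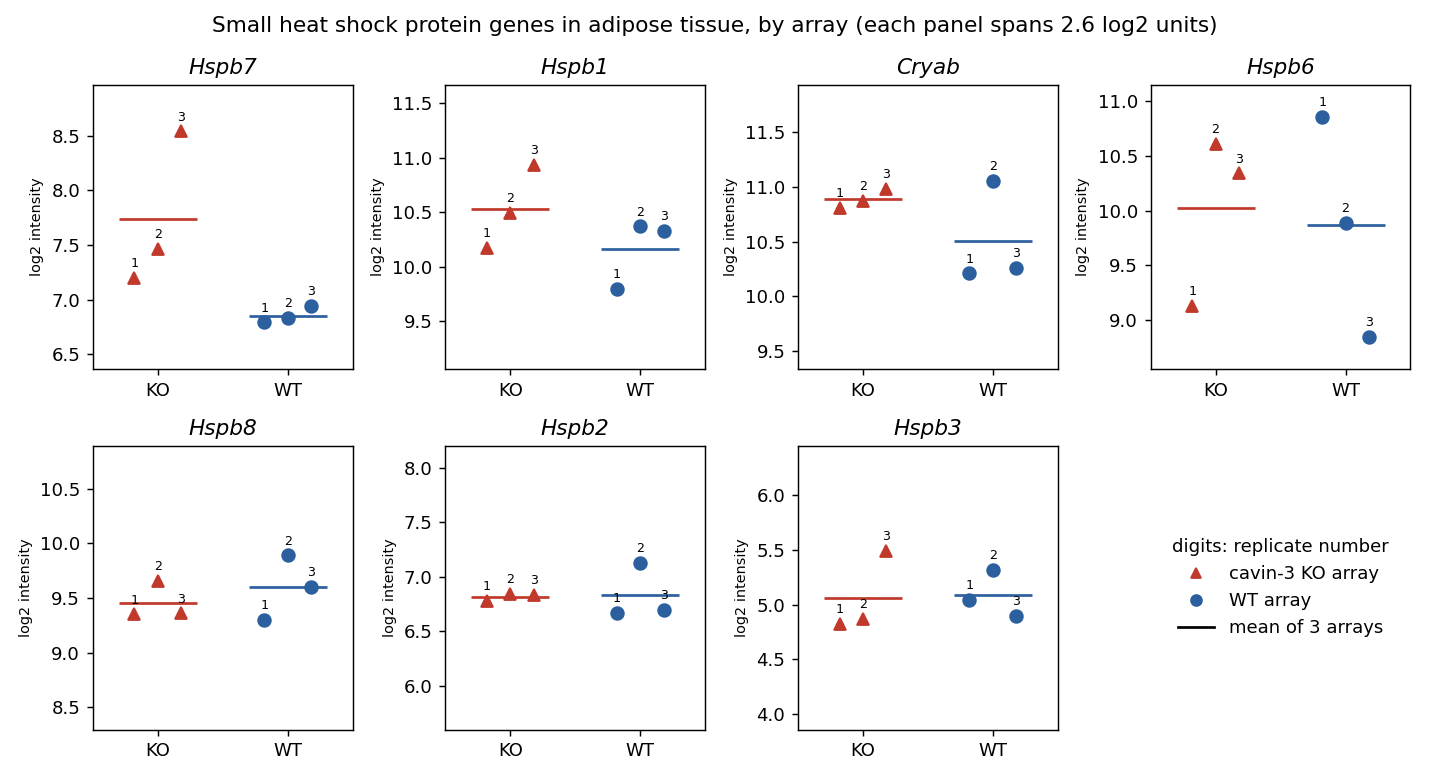
Log2 intensity of the 7 small heat shock protein genes, with 1 point per array for cavin-3 KO (red triangles) and WT (blue circles), the replicate number beside each point and a line at each mean of 3 arrays. The points of Hspb7 do not overlap, with KO from 7.20 to 8.54 and WT from 6.79 to 6.94, while KO and WT overlap for each of the other 6 genes.

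Hspb1, the mouse Hsp25, protects actin filaments under stress and is a classic target of heat shock factors. Its log2 signals were 10.17, 10.49 and 10.93 in KO and 9.80, 10.37 and 10.33 in WT. KO replicate 3 was the highest array and WT replicate 1 the lowest, and the groups overlapped. The mean was 10.53 ± 0.38 in KO and 10.17 ± 0.32 in WT (SD, n = 3 each), a log2 difference of 0.36 (95% interval -0.21 to 0.94, adjusted p = 1.0 from limma). It was 0.17 without KO replicate 3 and 0.18 without WT replicate 1. A second probe set carries the symbol Hspb1 alone. Its signals were 9.48, 9.83 and 10.16 in KO and 9.07, 9.70 and 9.67 in WT, with the arrays in the same order and a log2 difference of 0.34 (-0.23 to 0.91).

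The promoters of Hspb7 and Hspb1 are shown because they differ in the letters of the heat shock element, the DNA motif of heat shock factors. Each line gives the 250 bases before the annotated start of transcription in RefSeq (GRCm38.p6), 5′ to 3′ on the strand of the gene. The Hspb7 window is chr4:141420529-141420778 on the plus strand, and the Hspb1 window is chr5:135887669-135887918 on the plus strand. Capitals mark matches, on either strand, to GAANNTTC, a core of the heat shock element, to TATAAA and to the E-box CANNTG.
Hspb7: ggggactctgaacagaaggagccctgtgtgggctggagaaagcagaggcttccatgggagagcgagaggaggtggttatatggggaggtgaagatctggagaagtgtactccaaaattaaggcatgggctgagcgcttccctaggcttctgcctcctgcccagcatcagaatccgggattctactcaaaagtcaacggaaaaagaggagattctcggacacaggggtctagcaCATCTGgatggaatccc
Hspb1: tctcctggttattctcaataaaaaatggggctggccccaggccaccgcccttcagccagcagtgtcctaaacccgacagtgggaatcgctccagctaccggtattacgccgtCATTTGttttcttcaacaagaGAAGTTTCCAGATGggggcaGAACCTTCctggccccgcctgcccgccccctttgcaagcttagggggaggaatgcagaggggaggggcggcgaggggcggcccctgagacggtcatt

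The Hspb1 window holds 2 matches to GAANNTTC, beginning 117 and 97 bases before the start, and the Hspb7 window holds 0. Of all 32851 windows of 250 bases in the table, 6.69% hold this motif. The Hspb7 window has 1 match to CANNTG, 17 bases before the start, and the Hspb1 window has 2, of which 1 begins right after the first GAANNTTC match. CANNTG is found in 66.2% of all windows. Neither window holds TATAAA (12.4% of windows), a CArG box (1.47%) or a MEF2 site (2.92%), motifs that muscle genes often carry. These matches are letters in a window, and binding was not measured. The Hspb3 window held 1 GAANNTTC, 2 CANNTG, 1 TATAAA and 1 MEF2 site, and the Hspb8 window held 1 CANNTG and 0 of the other motifs. Hspb6 had a pair of windows, of which the upstream one held 0 motifs and the other 1 GAANNTTC and 1 TATAAA. Of the 7 genes 5 had a window in the table, and those of Hspb2 and Cryab were not used here.

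Cryab, alpha-B-crystallin, is a chaperone of lens, heart and muscle that keeps desmin filaments from aggregating. It had log2 signals of 10.81, 10.87 and 10.98 in KO and 10.21, 11.06 and 10.26 in WT. The KO arrays lay within 0.17 of each other, and WT replicate 2 was the highest of the 6 while the other WT arrays were the lowest. The mean was 10.89 ± 0.09 in KO and 10.51 ± 0.48 in WT (SD, n = 3 each). The log2 difference was 0.38 (-0.19 to 0.95, adjusted p = 1.0 from limma). Without WT replicate 2, the highest of the 6 arrays, it was 0.66 (0.40 to 0.91), but the adjusted p was again 1.0 in limma. WT replicate 2 was also the highest array for the 9 urothelium genes listed, with a mean of 8.26 against 6.25 to 6.83 elsewhere, and their part in this result was not tested. It was 0.23 without WT replicate 1 and 0.25 without WT replicate 3.

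Hspb2, which binds the myotonic dystrophy kinase Dmpk, lies within the annotated span of Cryab on chromosome 9 in GRCm38.p6, and whether the probes of one gene also read transcripts of the other was not tested. Its log2 signals were 6.78, 6.84 and 6.83 in KO and 6.67, 7.13 and 6.70 in WT. As for Cryab, WT replicate 2 was the highest array and the KO arrays were close together, within 0.05. The log2 difference was -0.02 (-0.36 to 0.32, adjusted p = 1.0 from limma), and it was 0.13 (-0.09 to 0.36) without WT replicate 2. Hspb3, the partner of Hspb2 in a complex of muscle cells, had 4.82, 4.87 and 5.49 in KO and 5.04, 5.32 and 4.90 in WT. It was dim, below the median probe set (6.10) on every array, with its highest values in KO replicate 3 and WT replicate 2. Its log2 difference was -0.03 (-0.53 to 0.48, adjusted p = 1.0 from limma), with -0.24 without KO replicate 3, 0.09 without WT replicate 2 and -0.13 without both.

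Hspb6, or Hsp20, is a target of cyclic AMP-dependent kinase that relaxes smooth muscle when phosphorylated. It varied most over the 6 arrays, by 2.02 on the log2 scale, where 97.8% of all genes had a smaller range. Its log2 signals were 9.13, 10.61 and 10.34 in KO and 10.86, 9.89 and 8.84 in WT. The highest arrays were WT replicate 1 and KO replicate 2, which were also those with the highest smooth muscle list means. The same arrays had the highest list means of epididymis genes (6.50 and 6.01) and of surface and glandular epithelium genes (7.29 and 7.33). KO averaged 10.03 ± 0.79 and WT 9.86 ± 1.01 (SD, n = 3 each), so that the log2 difference of 0.16 (-1.26 to 1.59, adjusted p = 1.0 from limma) was far below the spread within either genotype. With the smooth muscle list mean as a covariate, a setting chosen after seeing the data, it was 0.41 (-0.37 to 1.20). The direction turned without WT replicate 3 (-0.35) and without KO replicate 2 (-0.13). The part of smooth muscle in this result was not tested otherwise, and that of the epithelia was not tested.

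Hspb8, which works with the co-chaperone Bag3 to direct damaged muscle proteins to autophagy, had log2 signals of 9.35, 9.66 and 9.36 in KO and 9.30, 9.89 and 9.60 in WT. The groups overlapped, and WT replicate 2 was the highest array and WT replicate 1 the lowest. The mean was 9.46 ± 0.17 in KO and 9.60 ± 0.30 in WT (SD, n = 3 each), a log2 difference of -0.14 (-0.56 to 0.28, adjusted p = 1.0 from limma). It was -0.29 without WT replicate 1 and 0.01 without WT replicate 2. Without WT replicate 1 and KO replicate 2, a setting chosen after seeing the data, it was -0.39 (-0.78 to 0.00, adjusted p = 1.0 from limma). WT replicate 1 was the lowest of the 6 arrays for Hspb1, Hspb2, Hspb7, Hspb8 and Cryab, and the highest for Hspb6.

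**Figure D2:**
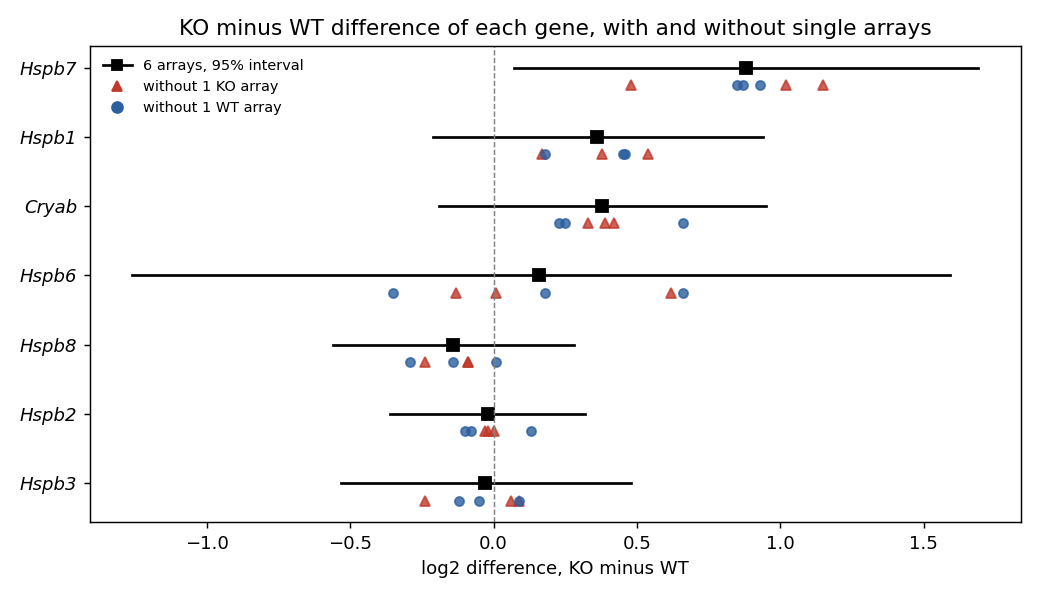
Log2 difference KO minus WT of each small heat shock protein gene, with all 6 arrays (black squares, bars are 95% intervals from limma) and without 1 KO array (red triangles) or 1 WT array (blue circles). Hspb7 lies between 0.48 and 1.15 with 1 array left out, on a side of 0 that its groups fix since they do not overlap, and Hspb6 lies on either side of 0, between -0.35 and 0.66.

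Several family members are muscle genes, so their levels were set beside skeletal muscle genes such as Ckm, the creatine kinase of muscle. Ckm had log2 signals of 6.76, 8.49 and 10.01 in KO and 8.77, 9.89 and 6.69 in WT. The list means of the skeletal muscle genes averaged 6.53 in KO and 6.52 in WT, and the median log2 difference of the 36 genes was -0.05 (13 above 0, 23 below). With limma 0 of them were called at an adjusted p under 0.05 and 0 at an unadjusted one. Over these genes, KO replicate 3 exceeded the mean of the other KO arrays by a median of 1.86, and WT replicate 2 exceeded the mean of the other WT arrays by 1.80.

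The small heat shock protein genes did not share this excess alike. Hspb7 was 1.21 higher in KO replicate 3 than in the other KO arrays, but in WT replicate 2, where Ckm had 9.89, it was within the range of the other WT arrays (6.83, a difference of -0.03 from their mean). For Cryab the excess lay with WT, 0.14 in KO replicate 3 and 0.83 in WT replicate 2. Hspb8 (-0.15 and 0.45) and Hspb2 (0.02 and 0.45) were on the same side. Hspb3 (0.64 and 0.35) and Hspb1 (0.60 and 0.30) were higher in both arrays, and Hspb6 had 0.48 in KO replicate 3 and 0.04 in WT replicate 2. These arrays are single samples, so the differences between them have no replicate check.

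**Figure D3:**
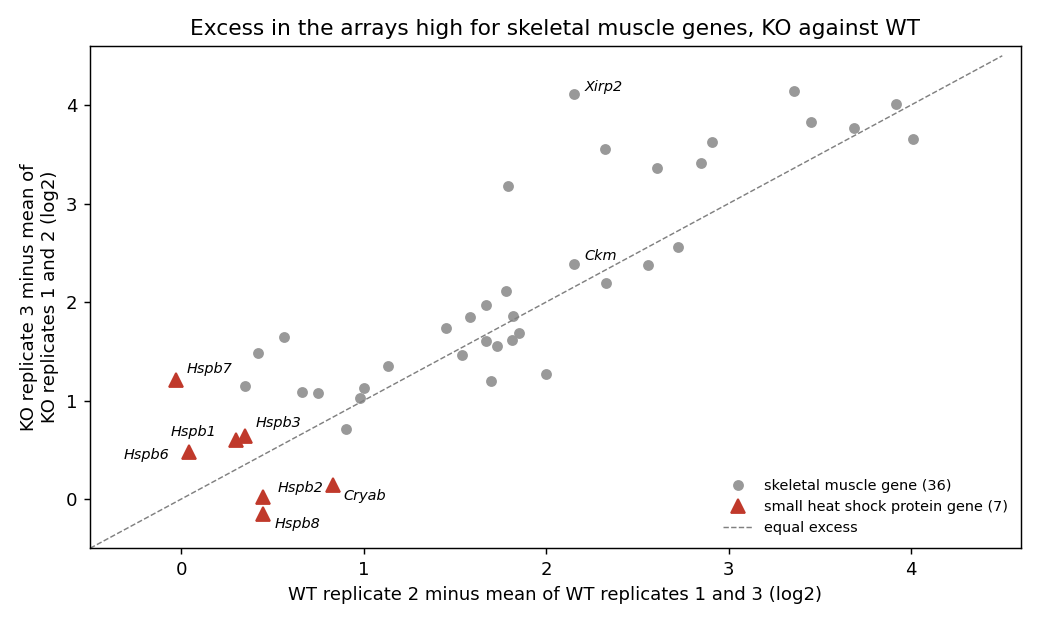
Excess of KO replicate 3 over the mean of the other KO arrays (vertical) against the excess of WT replicate 2 over the mean of the other WT arrays (horizontal), in log2 units, for 36 skeletal muscle genes (grey circles) and 7 small heat shock protein genes (red triangles). The dashed line marks equal excess, near which Ckm lies at 2.39 and 2.15, while Hspb7 lies at 1.21 and -0.03.

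Set directly against each other, KO replicate 3 was 1.71 above WT replicate 2 for Hspb7. Since Hspb7 was chosen for its higher KO signals, this value and its place among muscle genes are descriptions. The part of muscle in the Hspb7 signals was not tested by them. Among the 36 skeletal muscle genes the difference between these arrays had a median of 0.14 and ranged from -0.79 to 2.09. It was larger than that of Hspb7 for 1 gene, Xirp2, which encodes an actin-binding protein of the intercalated disc and of injured muscle and had 7.97 in KO replicate 3 and 5.88 in WT replicate 2. The difference was 0.56 for Hspb1, 0.45 for Hspb6, 0.17 for Hspb3, -0.08 for Cryab, -0.31 for Hspb2 and -0.54 for Hspb8. Without both arrays Hspb7 had a log2 difference of 0.47 (95% interval 0.08 to 0.85), or 1.38-fold. Cryab had 0.61 (0.34 to 0.87, adjusted p = 1.0 from limma) in that fit.

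**Figure D4:**
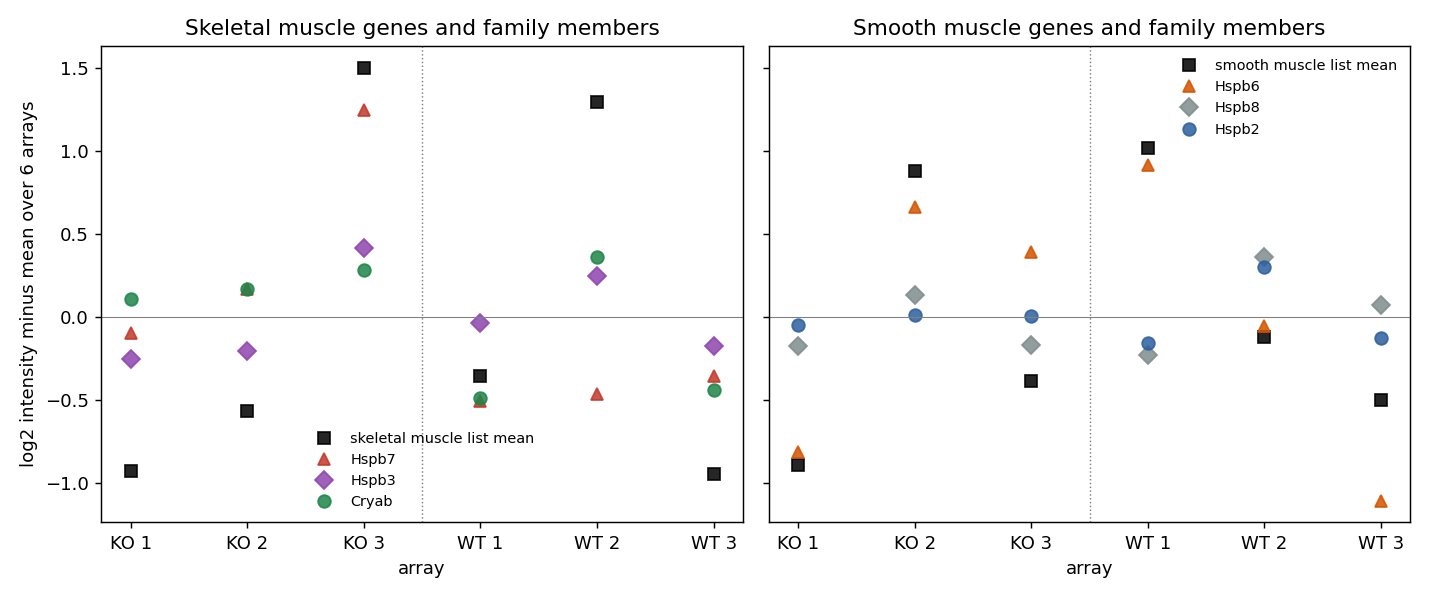
Log2 intensity minus the mean over the 6 arrays, by array (KO left of the dotted line, WT right), for the skeletal muscle list mean with Hspb7, Hspb3 and Cryab (left) and for the smooth muscle list mean with Hspb6, Hspb8 and Hspb2 (right). The skeletal muscle list peaks in KO replicate 3 and WT replicate 2 but Hspb7 in KO replicate 3 alone, and both Hspb6 and the smooth muscle list are highest in WT replicate 1 and KO replicate 2.

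The genes whose profiles over the 6 arrays came closest to those of the members were sought among 9967 genes with a mean signal above the median of all genes. Likeness was the root mean square distance of the log2 profiles, each centred on its mean. This was done for Hspb1, Hspb6 and Hspb7, the members that spanned more than 1 on the log2 scale. Closest to Hspb7 were Mustn1, a nuclear protein of the musculoskeletal system, Htra4, a secreted serine protease, and Mmp11, a matrix metalloproteinase, each at a distance of 0.32. Mustn1 had 9.81, 9.82 and 10.65 in KO and 9.38, 9.85 and 9.91 in WT, with KO replicate 3 the highest array but the groups overlapping. Closest to Hspb1 were Ly96, the co-receptor of Toll-like receptor 4 (distance 0.08), Htra4 (0.11) and Phf11d (0.12). Ly96 had 8.33, 8.65 and 9.02 in KO and 8.10, 8.42 and 8.49 in WT, so its arrays stood in nearly the same order. Closest to Hspb6 were Osr2, a transcription factor (0.17), Cldn1, a tight junction protein (0.22), and Tpm1, the tropomyosin of muscle and other cells (0.25). Tpm1 had 8.68, 10.17 and 9.70 in KO and 10.64, 9.65 and 9.01 in WT, highest in WT replicate 1 and KO replicate 2.

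Genes of the proteins that small heat shock proteins work with lay close to 0. Of 16 such genes limma called 0 at an adjusted and 0 at an unadjusted p under 0.05, and their median log2 difference was 0.00 (9 above 0 and 7 below, between -0.30 and 0.15). Bag3, which bridges Hspb8 to Hspa8, had 8.67, 9.03 and 8.59 in KO and 9.09, 8.45 and 8.76 in WT, and its log2 difference was 0.00 (-0.47 to 0.48). Hspa8, the constitutive Hsc70, was at 0.05 (-0.16 to 0.25). The smallest unadjusted p values of this list belonged to Bag1, Dmpk and Flna, all at adjusted p = 1.0 (limma). Bag1, another co-chaperone of Hsc70, was at -0.20 (-0.46 to 0.06), Dmpk at -0.30 (-0.98 to 0.37) and Flna, filamin A, at -0.20 (-0.78 to 0.38).

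Muscle filament genes among these partners spread widely within each genotype. Des, the desmin of muscle, had 7.62, 9.76 and 9.41 in KO and 10.00, 9.59 and 7.93 in WT, lowest in KO replicate 1 and WT replicate 3, as was Hspb6. Flnc, the muscle filamin that Hspb7 binds, had 6.90, 8.06 and 8.64 in KO and 8.23, 8.08 and 7.28 in WT. Its log2 difference was 0.00 (-1.14 to 1.14), beside 0.88 for Hspb7.

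The heat shock response is the program that heat shock factors switch on under stress. The genes listed for it, which need not all be targets of these factors, had small differences. Of 29 listed heat shock factors and large chaperones 26 were measured, and Hsf1, Hspa1b and Hsp90ab1 were not analysed here. Among the 26, limma called 0 at an adjusted and 0 at an unadjusted p under 0.05. Their median log2 difference was 0.00 (14 above 0 and 12 below), and all lay between -0.19 and 0.13. Hspa1a, the inducible Hsp70, had 6.70, 7.47 and 7.07 in KO and 7.70, 6.94 and 6.77 in WT. Dnajb1, the Hsp40 that heat shock induces along with it, was at 0.07 (-0.41 to 0.55). The smallest unadjusted p values belonged to Cct5 (-0.10), Cct2 (-0.12) and Cct3 (-0.19), subunits of the chaperonin that folds actin and tubulin. Cct5 was lower in every KO array (8.88 to 8.89) than in every WT array (8.95 to 9.02), an ordering found in 2.53% of all genes.

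The 4 other genes listed with the small heat shock proteins are better known from lens, testis and cilia. Cryaa, alpha-A-crystallin of the lens, was at a log2 difference of 0.03, Hspb9, of testis, at 0.11 (-0.13 to 0.35), and Odf1, a protein of the sperm tail, at 0.21 (-0.94 to 1.36). Hspb11, listed by its name and known as the cilium transport protein Ift25, was at -0.20 (-0.46 to 0.06). Its highest KO value was 5.69 and its lowest WT value 5.70, with adjusted p = 1.0 in limma. All KO values lay below all WT values in 2.53% of all genes. Hspb11 and Cryaa were dim, below the median probe set on every array, and Hspb9 was above it on 1. Odf1 was lowest in KO replicate 3 (5.85) and WT replicate 2 (5.79), where the Xist signal was high, and was at 6.84 to 7.24 in the others.

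**Figure D5:**
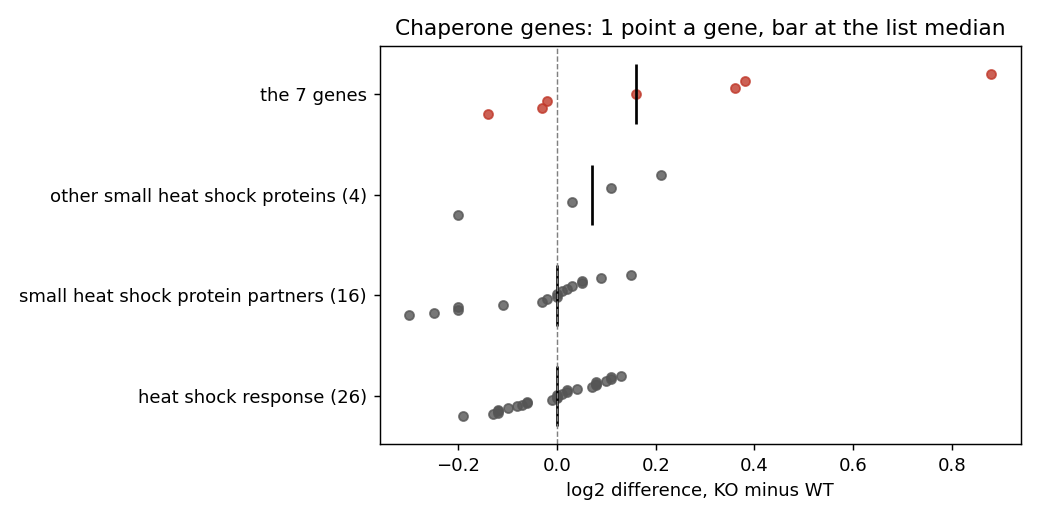
Log2 difference KO minus WT, with 1 point per gene and a bar at each list median, for the 7 small heat shock protein genes (red). Grey points are 4 other genes listed with them, 16 partner genes and 26 genes listed for the heat shock response. The 7 genes spread from -0.14 to 0.88 and the heat shock response genes from -0.19 to 0.13.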

How the data were processed

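RNA of 3 KO and 3 WT adipose samples was amplified, labelled with biotin and hybridised to 1 array each. The values the authors deposited are linear intensities per probe set. RMA is the tool in the submitters' processing notes, where its version is absent, and the methods name GenePattern modules. RMA corrects background, quantile normalizes the arrays and summarises probes, so differences hold relative to the bulk of the probe sets. For the probe sets, a genome build was not given in the sources used. Intensities were taken to log2 and fitted with limma 3.58.1 (lmFit, eBayes, no covariate) in R 4.3.3 over 34760 probe sets, and the procedure was tested on simulated data. Of these, 21640 carry 1 gene symbol, which gave 19937 genes. Intervals cover 95%. The Student t-test of the methods, called the methods' t-test, was an alternative, beside other normalizations, filters, covariates and left-out arrays.

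The members, gene lists and alternatives were chosen with earlier results of these data known. Genes named were the members, fixed controls and partners, up to 3 genes per list with the smallest unadjusted p, and the 3 nearest profiles. Flnc, Cryaa, Ucp1 and Ces5a were named after their values were seen. P-values measure only the spread between these samples, which may be partly technical.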

Additional observations from a re-analysis of the deposited data

How the results depend on the processing

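With all 6 arrays, limma called 2 of 34760 probe sets at an adjusted p under 0.05, and 677 had an unadjusted p under 0.05. The count was 1 among single-symbol probe sets and 1 with a smooth muscle covariate, between 1 and 2 without each array in turn, and 0 with the methods' t-test (759 unadjusted), without WT replicate 2 and KO replicate 3 (997), and without WT replicate 1 and KO replicate 2 (905). The smooth muscle covariate and the last pair were chosen after seeing the data. With the replicate block the count was 0 (698 unadjusted), and Hspb1 then had a log2 difference of 0.36 (0.01 to 0.71, unadjusted p = 0.0447 from limma). Same-numbered arrays deviated from their group means with correlations of -0.15, -0.37 and -0.09. The correlation was 0.52 for KO replicate 2 with WT replicate 1 and 0.48 for KO replicate 3 with WT replicate 2. Whether same-numbered samples shared a litter or a processing day is not stated, and these correlations cannot tell. Of the 6 small heat shock protein genes other than Hspb7, 0 passed under any of the 18 alternatives that give a test. At most 2 of all probe sets passed in any of these. The median log2 difference of the 7 genes, 0.16 with Hspb7 included, was between -0.08 and 0.42 without each array in turn. Over all alternatives Hspb7 was between 0.47 and 1.15, Cryab between 0.23 and 0.66 and Hspb1 between 0.16 and 0.54, while Hspb2, Hspb3, Hspb6 and Hspb8 lay on both sides of 0. The deposited values hold no background measure, and Hspb3 was not fitted once dim probe sets were left out.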

Other observations

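Other marker lists were high in single arrays of both genotypes. The 14 brown and beige adipocyte genes had list means of 6.52, 6.33 and 7.32 in KO replicates 1 to 3 and of 6.24, 7.26 and 6.24 in WT. KO replicate 3 and WT replicate 2 were the highest arrays for 10 of the 14. Ucp1, the uncoupling protein of brown fat, was picked after its values were seen. It had 8.75 in KO replicate 3 and 8.56 in WT replicate 2 and at most 4.52 elsewhere. Slc27a2, of the same list, was highest in KO replicate 1 (7.24) and lowest in WT replicate 2 (5.27). The 9 genes of the epididymis listed had means of 6.01 in KO replicate 2 and 6.50 in WT replicate 1, against 4.54 to 4.68 elsewhere, and these were the highest arrays for 4 of the 9. In KO replicate 2 and WT replicate 1, Ces5a, picked after its values were seen, had 9.15 and 10.53, against at most 5.50 on the other arrays, while Lcn8 had 4.15 and 4.19, against 4.01 to 4.34. Myf6, a transcription factor of muscle fibres, had 6.06 in KO replicate 3 and 5.28 in WT replicate 2, against 4.29 to 4.48 on the others. It was dim, below the median probe set on every array. KO replicate 3 and WT replicate 2 were highest for 5 of the 9 muscle regulators measured. Mef2a (10.00) and Mef2d (8.90) were lowest in WT replicate 2. Of 10 genes listed for heart muscle, 3 lay above the median signal, and the list means were 5.93 to 6.16 in KO and 5.93 to 6.22 in WT. KO replicate 3 and WT replicate 2 were the highest arrays for 3 of the 10. Of the 10 genes limma called 0 at an adjusted and 0 at an unadjusted p under 0.05.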
